A study of Caenorhabditis elegans with 12 samples.

Results

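The cuticle collagens and molting genes of *C. elegans* described here were chosen by name. They are the protein-coding genes with RNA counts for each library whose symbol belongs to the *col*, *dpy*, *sqt*, *rol*, *bli*, *ram*, *mlt*, *noah*, *cut*, *cutl*, *wrt*, *grd*, *grl*, *ptr*, *ptc*, *nas*, *bus* or *lon* families, with *acn-1* added and the X chromosome dosage genes that share the *dpy* name left out. The count tables of the libraries held 5272 genes, of which 3363 are protein-coding, and 41 of these met the rule. The whole WBcel235 annotation holds 371 such genes, so most genes of these families were not analysed here. The 41 members were 12 *col* collagens of 156 annotated, 5 *ptr*, 3 *cutl*, 3 *dpy*, 3 *nas*, 2 *bli*, 2 *bus*, 2 *cut* and 2 *grd* genes and 1 each of *acn-1*, *grl-25*, *lon-1*, *mlt-9*, *ptc-3*, *rol-6* and *sqt-1*. No furrow collagen (*dpy-2*, *dpy-3*, *dpy-7*, *dpy-8*, *dpy-9* and *dpy-10*) was among them.

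RNA from whole nematodes of age day 6 was sequenced in 12 libraries, each made from a pool of adult animals fed *E. coli*. Of these, 4 came from wild-type nematodes (WT, Bristol N2) exposed to 500 µM FW1256, a compound that releases hydrogen sulfide (H2S), from the first larval stage (L1). Another 4 came from unexposed *eat-2* mutants of strain DA1116, which lack normal function of a pharyngeal acetylcholine receptor subunit, eat less and are used as a model of dietary restriction. The last 4 came from unexposed WT. The mutant was studied as 1 strain, and the labels do not say whether the 4 libraries of a group came from separate cultures, so p-values measure the spread between libraries, which may be technical. A treatment note shared by all 12 samples describes the exposure, and the groups here follow the sample titles. The libraries totalled 14769332 to 19199982 estimated counts over the genes in the tables, and levels are given as CPM, counts scaled to a fixed library size after TMM normalization.

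The nematode cuticle is an extracellular coat, built mostly of collagens, that the hypodermis (the epidermis of the worm) secretes anew at each larval molt. Collagens are modified and folded in the secretory pathway, cut by proteases, and cross-linked outside the cell, where cuticlins and other zona pellucida domain proteins form further layers. Molting also needs patched-related membrane proteins, hedgehog-related secreted proteins and astacin metalloproteases, and many of these genes cycle in expression with the larval molts. Adults no longer molt, but continue to express part of the collagen family.

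In nematodes exposed to FW1256, 3 abundant collagens rose while a group of other cuticle and molting genes fell. The rises reached 6.43-fold for *col-160*, 4.38-fold for *col-124* and 1.89-fold for *col-184*, and the largest falls were 12.3-fold for the glycosyltransferase gene *bus-8B* and 10.5-fold for the cuticlin-like gene *cutl-8*. In *eat-2* mutants the 3 collagens and *cutl-8* did not pass the test, and *bus-8B* was 1.67-fold higher than in WT. In both groups *nas-20* and *ptc-3* were lower than in WT and *lon-1* was higher. The collagen *col-12* was called lower in both groups, but its libraries overlapped those of WT. Its *eat-2* call was lost when some single libraries were left out. In bulk RNA of whole animals, fewer cells of a type and less RNA per cell cannot be told apart. The study reports that FW1256 exposure and *eat-2* mutation each delayed development and reproduction. At age day 6 the groups may therefore differ in stage, and the part of stage in these changes was not tested.

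Against unexposed WT, FW1256 exposure changed 19 of the 35 members tested, a share of 54.3% where 50.2% of all tested genes were called (edgeR's quasi-likelihood test, adjusted p under 0.05 by the Benjamini-Hochberg method over 3616 genes). The share of members called was therefore near that of all genes, and the calls were uneven in direction. Of the members, 4 rose (11.4%, against 25.5% of all genes) and 15 fell (42.9%, against 24.8% of all genes). A change of at least 2-fold was called in 10 members, 2 of them higher and 8 lower, against 2.85% of all genes called at least 2-fold higher and 8.41% lower. The median log2 fold change of the members was -0.72, and that of all genes was -0.0029. The groups did not overlap for 13 of the members, where 48.1% of all genes tested had groups that did not overlap. Among the 21 tested members that overlap no annotated gene, 8 were called (38.1%), 2 higher (9.52%) and 6 lower (28.6%), so the share of falls was nearer that of all genes, and changes of at least 2-fold were called in none higher and 2 lower. Without the fourth FW1256 library, which is absent from the study's heatmap, 17 members were called, 4 higher and 13 lower.

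Between *eat-2* mutants and WT, 8 of 36 members tested were called (22.2%, against 44.2% of 3786 genes tested), a share below that of all genes. Of the members, 4 were higher (21.8% of all genes were) and 4 lower (22.4% of all genes were), and 3 changed at least 2-fold (5.18% of all genes did), 1 of them higher (4.6% of all genes) and 2 lower (0.581% of all genes). The median was 0.14, against 0.024 for all genes, and the groups did not overlap for 7 members (42.9% of all genes). These 2 comparisons share the WT libraries, so their calls are not independent, and the values of each member are given side by side. A call in only 1 of these comparisons does not show that the effects differ, and the direct comparison of exposed WT with *eat-2* mutants was made for that reason.

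**Figure D1:**
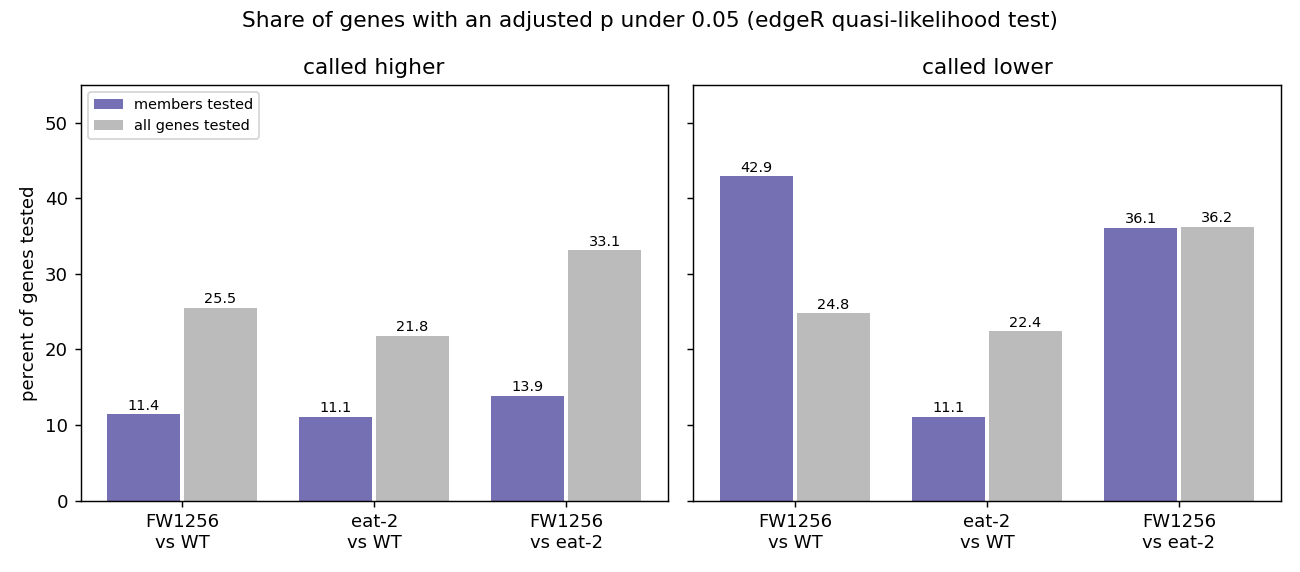
Percent of genes tested that were called higher (left) or lower (right) in each comparison, with an adjusted p under 0.05. Purple bars stand for the members and grey bars for all genes tested. Members called lower with FW1256 made up 42.9% of those tested, against 24.8% of all genes, and members called in *eat-2* mutants made up 11.1% in each direction.

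**Figure D2:**
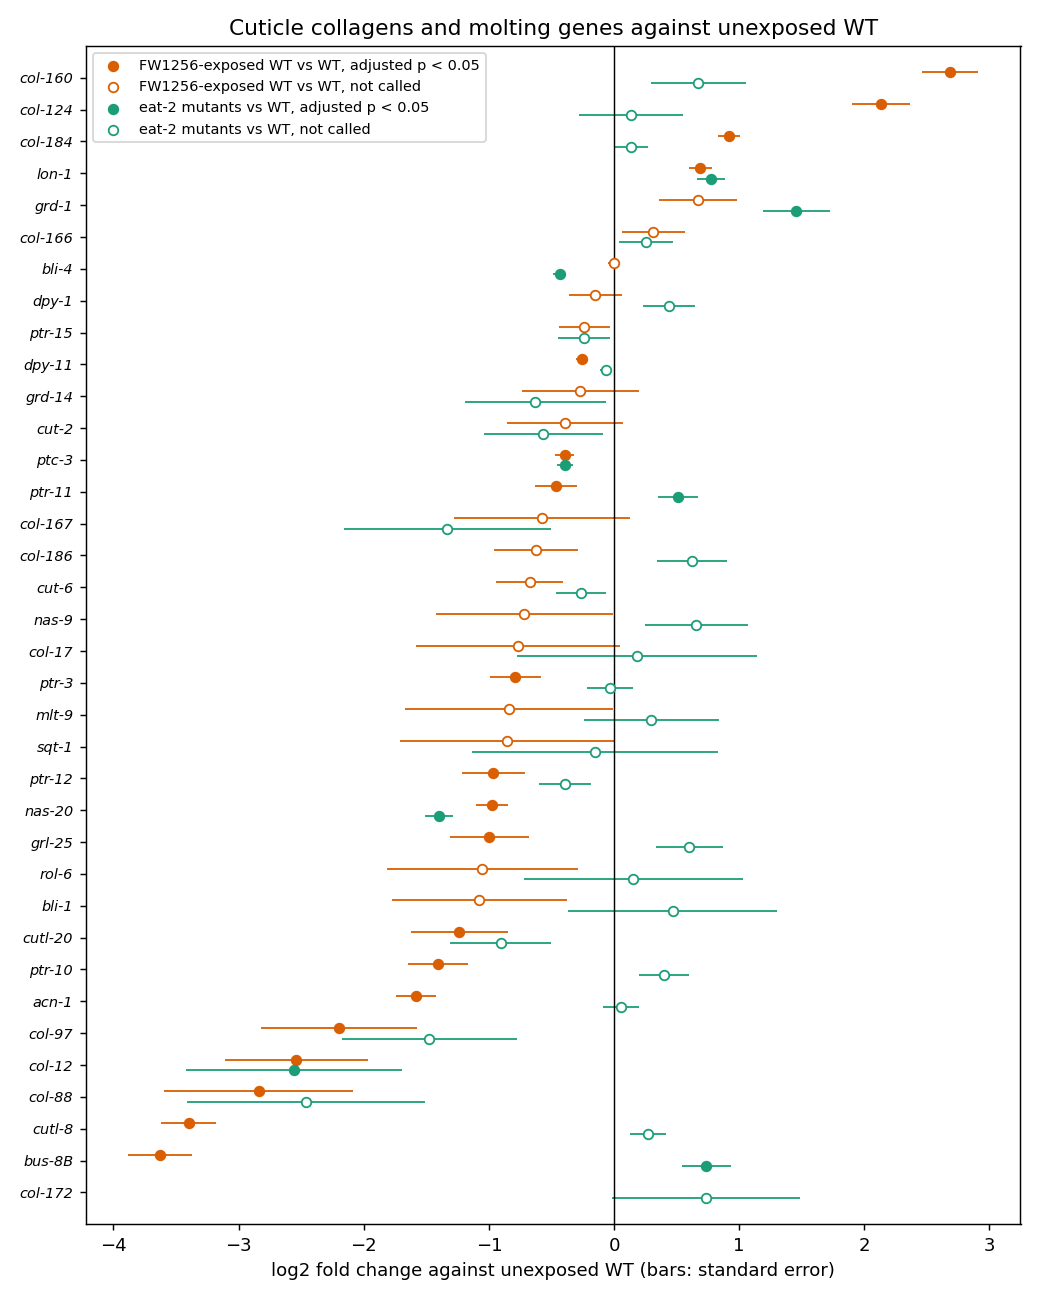
Log2 fold change of each tested member against unexposed WT, with its standard error, for FW1256-exposed WT (orange) and *eat-2* mutants (green). Filled points passed the test. The 3 collagens at the top and *bus-8B*, *cutl-8*, *acn-1* and *ptr-10* toward the bottom moved with FW1256, while their green points lie nearer 0. The points of *col-12*, *col-88*, *col-97*, *cutl-20*, *nas-20* and *ptc-3* were low in both groups. In *eat-2* mutants *col-88*, *col-97* and *cutl-20* did not pass the test. The lowest row, *col-172*, was not tested with FW1256 and has no orange point.

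The collagen *col-160* (chromosome V, 13200982 to 13202189) had 1342, 1274, 1227 and 1079.7 CPM in WT exposed to FW1256, 245, 572, 216 and 177 CPM in *eat-2* mutants, and 105, 244, 187 and 224 CPM in unexposed WT. All 4 exposed libraries lay far above the other 8, and the *eat-2* and WT libraries overlapped. The log2 fold change against WT was 2.69 ± 0.22 (standard error) with FW1256 (edgeR's quasi-likelihood test, adjusted p = 1.96e-05) and 0.67 ± 0.38 in *eat-2* mutants (adjusted p = 0.173). The gene lies within the annotated span of a second collagen gene, *col-159*, on the same strand, and *col-159* was not analysed here, so reads from the overlap cannot be assigned with certainty.

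The collagen *col-124* (chromosome IV, 10216451 to 10217617) had 1152, 1145, 1187 and 1145 CPM with FW1256, 176, 583, 205 and 190.2 CPM in *eat-2* mutants, and 157, 399, 278 and 217 CPM in WT. The exposed libraries were close to each other and above all others, and 1 *eat-2* library, replicate 2, stood above the rest of its group. The log2 fold change was 2.13 ± 0.23 with FW1256 (edgeR's quasi-likelihood test, adjusted p = 8.6e-05) and 0.14 ± 0.42 in *eat-2* mutants (adjusted p = 0.813). It overlaps *qns-1*, a gene for NAD synthesis on the opposite strand, which was at 0 to 6.43 CPM with FW1256, 3.89 to 6.69 CPM in *eat-2* mutants and 0.971 to 8.36 CPM in WT, far below the level of the collagen.

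The collagen *col-184* (chromosome X, 13469455 to 13470409), which overlaps no annotated gene, had 2407, 2441, 2216 and 2118 CPM with FW1256, 1326, 1664, 1219 and 1092 CPM in *eat-2* mutants, and 1006, 1403, 1210.2 and 1205 CPM in WT. Again the exposed group stood apart and the other groups overlapped. The log2 fold change was 0.92 ± 0.09 with FW1256 (edgeR's quasi-likelihood test, adjusted p = 4.85e-05) and 0.14 ± 0.13 in *eat-2* mutants (adjusted p = 0.432). Scaled to the length of the longest transcript, *col-184* had the highest level of all members in every group, at 2525 CPM per kb with FW1256, 1458 in *eat-2* mutants and 1327 in WT.

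Together the transcripts of *col-124*, *col-160* and *col-184* summed to 4684 ± 257 CPM in WT exposed to FW1256, 1916 ± 613 CPM in *eat-2* mutants and 1659 ± 318 CPM in unexposed WT (SD, n = 4 each). They made up 94.5% to 97.7% of the summed CPM of the 12 *col* genes with FW1256, 90.0% to 94.4% in *eat-2* mutants and 78.3% to 94.5% in WT. Because the 3 genes were grouped for their rise, the sum is a description and has no test of its own. As a share of all estimated counts in the tables it was 0.425% to 0.468% with FW1256, 0.152% to 0.280% in *eat-2* mutants and 0.130% to 0.203% in WT.

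The fourth gene that rose was *lon-1* (chromosome III, 5474476 to 5478005), which encodes a secreted protein that limits body length and is repressed by the DBL-1 TGF-beta pathway. It had 108.8, 109.8, 114.5 and 105 CPM with FW1256, 112, 133, 112.5 and 105 CPM in *eat-2* mutants, and 65.2, 71.2, 77.99 and 55.3 CPM in WT. Every exposed and every mutant library exceeded every WT library. On the log2 scale the change against WT was 0.69 ± 0.09 with FW1256 (edgeR's quasi-likelihood test, adjusted p = 0.000249) and 0.78 ± 0.11 in *eat-2* mutants (adjusted p = 0.00071). Between exposed WT and *eat-2* mutants the log2 difference was -0.09 ± 0.07 (adjusted p = 0.282), and with library size in place of TMM it passed the test at -0.16 (adjusted p = 0.0425).

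**Figure D3:**
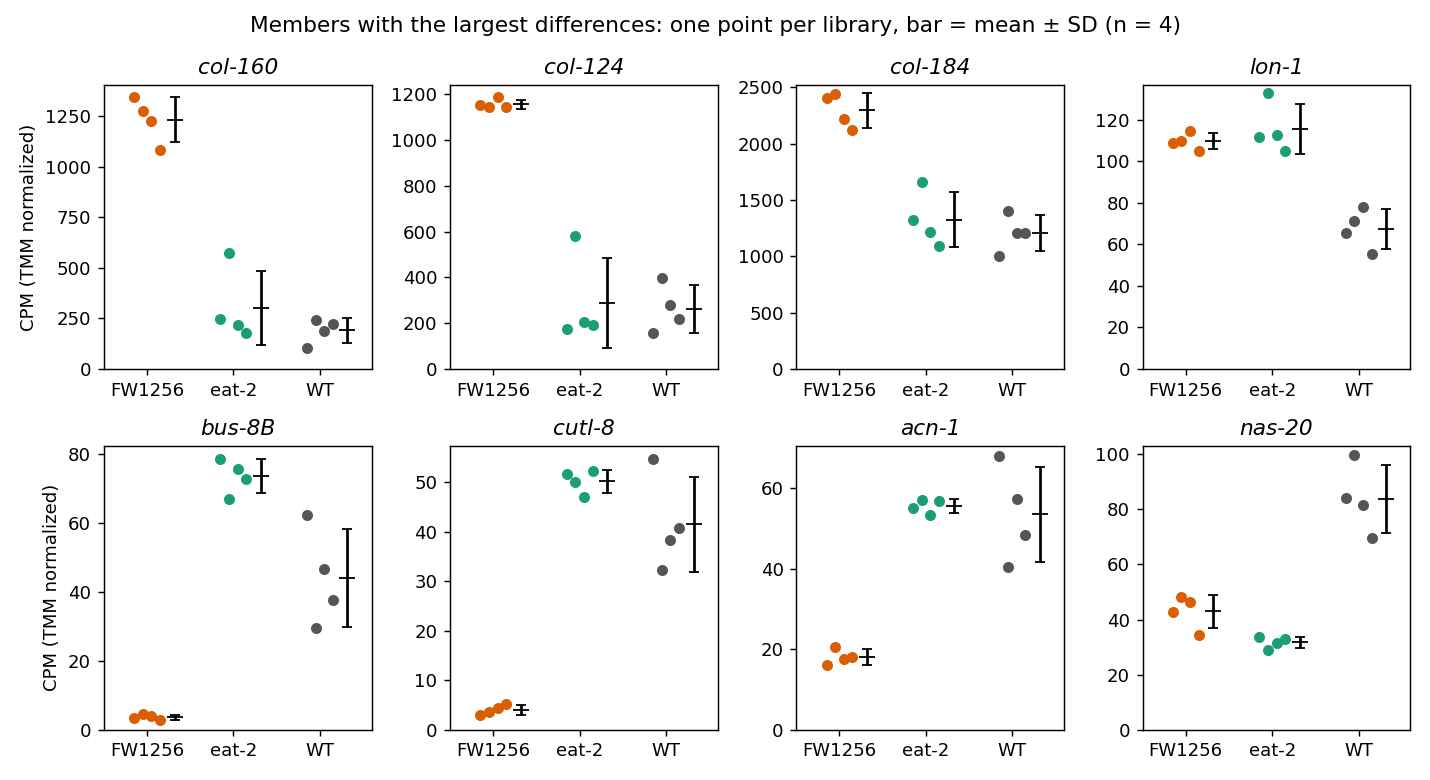
CPM of 8 members in each library, with the mean and SD of each group of 4 beside the points. The 3 collagens of the top row are high in the FW1256 libraries only, *lon-1* is high in FW1256 and *eat-2* libraries, *bus-8B*, *cutl-8* and *acn-1* are low in FW1256 libraries only, and *nas-20* is low in both groups relative to WT.

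Among the genes that fell with FW1256, *bus-8B* (chromosome X, 5493332 to 5496050) belongs to the *bus-8* locus, whose glycosyltransferase shapes the nematode surface and is needed for an intact cuticle barrier. It had 3.30, 4.50, 3.84 and 2.77 CPM with FW1256, 78.7, 67.0, 75.6 and 72.8 CPM in *eat-2* mutants, and 62.4, 29.5, 46.7 and 37.5 CPM in WT. The 3 groups did not overlap at all, with the exposed libraries lowest and the mutant libraries highest. Its log2 fold change was -3.63 ± 0.26 with FW1256 (edgeR's quasi-likelihood test, adjusted p = 7.99e-06) and 0.74 ± 0.19 in *eat-2* mutants (adjusted p = 0.0127). The direct log2 difference of exposed WT from *eat-2* mutants was -4.37 ± 0.13 (adjusted p = 3.68e-08). The gene overlaps *bus-8A* on the same strand and *T23F2.2* on the opposite strand, neither of which was analysed here, and its reads are uncertain to that extent.

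The cuticlin-like gene *cutl-8* (chromosome I, 8270304 to 8275706) encodes a zona pellucida domain protein. It had 2.86, 3.59, 4.28 and 5.16 CPM with FW1256, 51.6, 49.9, 46.9 and 52.2 CPM in *eat-2* mutants, and 54.7, 32.2, 38.2 and 40.7 CPM in WT. The exposed libraries all lay below the lowest of the other 8, whose groups overlapped. The fitted log2 change was -3.40 ± 0.22 with FW1256 (edgeR's quasi-likelihood test, adjusted p = 5.69e-06) and 0.27 ± 0.14 in *eat-2* mutants (adjusted p = 0.146). Without WT replicate 1 the difference in *eat-2* mutants was 0.44 and passed the test (adjusted p = 0.00824). The gene overlaps *T01G9.2* on the opposite strand, which was not analysed here, so reads from the overlap cannot be assigned with certainty.

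The gene *acn-1* (chromosome X, 5092481 to 5097067) encodes a relative of angiotensin-converting enzyme that lacks its catalytic residues and is required for molting. It had 15.9, 20.6, 17.6 and 17.98 CPM with FW1256, 55.2, 57.1, 53.2 and 56.9 CPM in *eat-2* mutants, and 67.9, 40.3, 57.3 and 48.4 CPM in WT. The exposed libraries did not reach the others, and the mutant libraries fell inside the WT range. On the log2 scale it differed from WT by -1.58 ± 0.16 with FW1256 (edgeR's quasi-likelihood test, adjusted p = 5.33e-05) and 0.06 ± 0.14 in *eat-2* mutants (adjusted p = 0.773). The gene overlaps *pnk-4* and a noncoding RNA gene on the opposite strand. Neither was analysed here, so reads from the overlap cannot be assigned with certainty.

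The patched-related genes, whose products resemble the hedgehog receptor Patched, were lower or did not pass the test with FW1256. Of the 5 *ptr* genes, *ptr-15* had a log2 fold change of -0.24 (edgeR's quasi-likelihood test, adjusted p = 0.351). The other genes, *ptr-3*, *ptr-10*, *ptr-11* and *ptr-12*, fell, where 24.8% of all tested genes were lower. The largest fall among them was that of *ptr-10* (chromosome I, 5662143 to 5667160), with 2.69, 3.10, 3.78 and 2.58 CPM with FW1256, 11.1, 10.1, 9.71 and 11.1 CPM in *eat-2* mutants, and 9.11, 5.07, 10.02 and 7.73 CPM in WT. Its exposed libraries lay below all others. Its log2 fold change was -1.40 ± 0.24 with FW1256 (edgeR's quasi-likelihood test, adjusted p = 0.00113) and 0.40 ± 0.20 in *eat-2* mutants (adjusted p = 0.131). The gene *ptr-10* overlaps *F55F8.8* on the opposite strand, which was not analysed here, so reads from the overlap cannot be assigned with certainty. The falls of *ptr-3* and *ptr-12* had log2 fold changes of -0.79 (adjusted p = 0.00903) and -0.96 (adjusted p = 0.00939). The counts of *ptr-12* were partial, at 27.6% of the mean that the authors give for it.

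The gene *ptr-11* (chromosome I, 160172 to 169763) was called in opposite directions. It had 11.2, 10.4, 14.4 and 11.7 CPM with FW1256, 20.6, 25.9, 25.9 and 20.4 CPM in *eat-2* mutants, and 15.5, 19.6, 12.3 and 17.7 CPM in WT. The exposed and WT ranges overlapped, and the mutant libraries lay above both. The log2 change against WT was -0.46 ± 0.17 with FW1256 (edgeR's quasi-likelihood test, adjusted p = 0.0406) and 0.51 ± 0.16 in *eat-2* mutants (adjusted p = 0.0255), and the direct log2 difference of exposed WT from *eat-2* mutants was -0.98 ± 0.13 (adjusted p = 0.000133). The FW1256 call was lost in 8 of 15 alternative settings, among them the omission of WT replicate 1, 2 or 4 or of FW1256 replicate 1, 2 or 4 (adjusted p up to 0.105). The *eat-2* call was lost in 4, with *eat-2* replicate 2 or 3 or WT replicate 1 or 3 left out (adjusted p up to 0.075).

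The Patched gene *ptc-3* (chromosome II, 2845412 to 2852593), which is expressed in the hypodermis and needed for molting, fell in both groups. It had 65.8, 59.5, 69.7 and 56.9 CPM with FW1256, 60.2, 66.4, 65.3 and 59.0 CPM in *eat-2* mutants, and 77.8, 82.1, 86.8 and 82.1 CPM in WT. Both groups lay wholly below WT and overlapped each other. The log2 fold changes were -0.40 ± 0.07 with FW1256 (edgeR's quasi-likelihood test, adjusted p = 0.00163) and -0.39 ± 0.07 in *eat-2* mutants (adjusted p = 0.0014).

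Among the hedgehog-related genes, *grd-1* rose in *eat-2* mutants, with 2.97, 4.83, 4.70 and 4.06 CPM against 1.997, 1.56, 1.49 and 0.950 CPM in WT. Its mutant libraries exceeded all WT libraries, and its log2 fold change was 1.45 ± 0.27 (edgeR's quasi-likelihood test, adjusted p = 0.00239). With FW1256, *grd-1* had 2.42, 3.52, 1.89 and 1.87 CPM, which overlapped WT (log2 fold change 0.67 ± 0.31, adjusted p = 0.0973). The ground-like gene *grl-25* fell with FW1256 by 1.00 on the log2 scale (adjusted p = 0.0244). Its exposed libraries, at 1.06 to 1.74 CPM, overlapped the WT libraries at 1.52 to 3.61 CPM. The third gene of this kind, *grd-14*, passed the test in neither comparison.

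The astacin metalloprotease gene *nas-20* (chromosome V, 11470925 to 11472309) was lower in both groups. It had 42.7, 48.0, 46.5 and 34.5 CPM with FW1256, 33.7, 29.03, 31.3 and 32.97 CPM in *eat-2* mutants, and 84.2, 99.6, 81.5 and 69.5 CPM in WT. None of the 3 groups overlapped, and the mutants were lowest. Fitted across libraries, the log2 fold change was -0.97 ± 0.13 with FW1256 (edgeR's quasi-likelihood test, adjusted p = 0.000239) and -1.40 ± 0.11 in *eat-2* mutants (adjusted p = 6.71e-05), with exposed WT above *eat-2* mutants by 0.42 ± 0.10 (adjusted p = 0.00514). The other *nas* genes had too few counts in the libraries for a clear answer. Their counts were partial, at 5.09% of the mean that the authors give for *nas-9* and 5.59% for *nas-6*. With FW1256 *nas-9* had -0.72 on the log2 scale (adjusted p = 0.422), and *nas-6* did not pass the filter on low counts.

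Among enzymes that prepare collagens in the secretory pathway, the members *dpy-11* and *bli-4* differed by less than 2-fold in each comparison. The gene *dpy-11* (chromosome V, 6511583 to 6515240) encodes a thioredoxin-like protein of the hypodermis required for body shape. It had 579, 572, 595 and 583 CPM with FW1256, 665, 682, 638 and 648 CPM in *eat-2* mutants, and 717, 679.7, 642 and 722 CPM in WT. The exposed libraries lay below all others by a small margin, with a log2 fold change of -0.26 ± 0.05 with FW1256 (edgeR's quasi-likelihood test, adjusted p = 0.00145) and -0.07 ± 0.05 in *eat-2* mutants (adjusted p = 0.27).

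The gene *bli-4* (chromosome I, 6342224 to 6356680) encodes a kexin-like proprotein convertase that cleaves procollagens. It had 733, 678, 734 and 699.6 CPM with FW1256, 494, 503, 543 and 550.2 CPM in *eat-2* mutants, and 672, 683, 758 and 712 CPM in WT. The mutant libraries lay below all others, while exposed WT and unexposed WT overlapped. The change on the log2 scale was -0.43 ± 0.05 in *eat-2* mutants (edgeR's quasi-likelihood test, adjusted p = 0.000435), and with FW1256 it was -0.0017 ± 0.04 (adjusted p = 0.979). The gene overlaps *mut-2* on the opposite strand and noncoding RNA genes. None of these was analysed here, so reads from the overlaps cannot be assigned with certainty.

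Comparing exposed WT directly with *eat-2* mutants, 18 of 36 members tested were called, a share of 50% where 69.3% of 3715 genes were called. Of the members, 5 were higher in exposed WT (33.1% of all genes were) and 13 lower (36.2% of all genes were), and the groups did not overlap for 17 (65% of all genes). A difference of at least 2-fold was called in 9 members (16.4% of all genes), 2 higher (1.21% of all genes) and 7 lower (15.2% of all genes). The higher ones were *col-124*, *col-160*, *col-184*, *bli-4* and *nas-20*. The log2 differences of the collagens were 1.98 ± 0.36 for *col-124* (edgeR's quasi-likelihood test, adjusted p = 0.000783), 2.004 ± 0.33 for *col-160* (adjusted p = 0.00042) and 0.78 ± 0.12 for *col-184* (adjusted p = 0.000237). Lower in exposed WT were *bus-8B*, *cutl-8* (-3.68 ± 0.16, adjusted p = 1.5e-07), *acn-1* (-1.64 ± 0.08, adjusted p = 3.54e-07), *ptr-10* (-1.81 ± 0.16, adjusted p = 6.76e-06) and 9 others, which were *col-172*, *col-186*, *dpy-1*, *dpy-11*, *grd-1*, *grl-25*, *ptr-3*, *ptr-11* and *ptr-12*. Counts were partial for *col-172*, *dpy-1* and *ptr-12*, at 24.2%, 44.7% and 27.6% of the authors' mean. The level of *col-172* was also very low, at 0.258 to 0.630 CPM with FW1256 and 0.638 to 1.90 CPM in *eat-2* mutants.

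A further 3 collagens, named here after their values were seen, were low in exposed animals on average but varied widely in WT. The collagen *col-12* had 11.2, 16.8, 9.83 and 11.2 CPM with FW1256, 5.58, 33.1, 7.21 and 1.86 CPM in *eat-2* mutants, and 62.3, 155, 50.8 and 15.5 CPM in WT. The highest exposed library exceeded the lowest WT library, which was replicate 4, so the groups overlapped. In the fit the log2 fold change was -2.54 ± 0.57 with FW1256 (edgeR's quasi-likelihood test, adjusted p = 0.00472) and -2.56 ± 0.86 in *eat-2* mutants (adjusted p = 0.0369). The *eat-2* call was lost when *eat-2* replicate 1, 3 or 4 or WT replicate 1, 2 or 3 was left out (adjusted p 0.0556 to 0.11).

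The collagen *col-88* had 2.69, 4.72, 5.16 and 4.38 CPM with FW1256, 3.15, 14.3, 3.35 and 0.813 CPM in *eat-2* mutants, and 29.95, 70.5, 17.4 and 2.72 CPM in WT. The collagen *col-97* had 6.32, 14.78, 7.62 and 9.09 CPM with FW1256, 9.15, 31.03, 15.8 and 5.75 CPM in *eat-2* mutants, and 60.3, 75.5, 30.01 and 6.14 CPM in WT. For *col-88* WT replicate 4 lay just above the lowest exposed library, and for *col-97* it lay below all 4. With FW1256 the log2 fold change was -2.84 ± 0.75 for *col-88* (edgeR's quasi-likelihood test, adjusted p = 0.0108) and -2.20 ± 0.62 for *col-97* (adjusted p = 0.0149). In *eat-2* mutants it was -2.46 ± 0.95 for *col-88* (adjusted p = 0.06) and -1.48 ± 0.70 for *col-97* (adjusted p = 0.113), and both passed the test when WT replicate 4 (adjusted p = 0.0196 and 0.022) or *eat-2* replicate 2 (adjusted p = 0.0189 and 0.0494) was left out.

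The collagens with classical body-shape or blister mutants passed the test in none of the 3 comparisons. The gene *sqt-1* had 5.17, 7.25, 1.07 and 4.06 CPM with FW1256, 1.78, 16.3, 9.14 and 1.103 CPM in *eat-2* mutants, and 14.3, 13.6, 3.15 and 0.380 CPM in WT. The gene *rol-6* had 3.68, 5.91, 1.57 and 3.55 CPM with FW1256, 2.26, 17.5, 11.4 and 2.55 CPM in *eat-2* mutants, and 13.3, 12.9, 3.44 and 0.507 CPM in WT. For both, the libraries of WT alone spanned more than the difference between groups. The gene *bli-1*, a collagen of the struts of the adult cuticle, had 1.15, 2.32, 1.32 and 1.16 CPM with FW1256, 1.25, 10.3, 3.92 and 1.68 CPM in *eat-2* mutants, and 5.63, 5.13, 1.32 and 0.317 CPM in WT. The log2 fold changes with FW1256 were -0.86 ± 0.85 for *sqt-1* (edgeR's quasi-likelihood test, adjusted p = 0.424), -1.05 ± 0.77 for *rol-6* (adjusted p = 0.277) and -1.08 ± 0.70 for *bli-1* (adjusted p = 0.226). Without WT replicate 4, *rol-6* and *bli-1* passed the test with FW1256, at -1.44 (adjusted p = 0.0481) and -1.44 (adjusted p = 0.0408).

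Several members passed the test in neither comparison with WT. Among collagens, *col-166* had 64.2 to 137 CPM with FW1256, 67.9 to 113.2 CPM in *eat-2* mutants and 58.4 to 102 CPM in WT, and its groups overlapped (0.32 ± 0.25 on the log2 scale with FW1256, edgeR's quasi-likelihood test, adjusted p = 0.324). The values with FW1256 were -0.58 ± 0.70 for *col-167* (adjusted p = 0.515), -0.77 ± 0.82 for *col-17* (adjusted p = 0.456) and -0.63 ± 0.33 for *col-186* (adjusted p = 0.146). The cuticlin genes *cut-2* and *cut-6* had -0.39 ± 0.46 (adjusted p = 0.502) and -0.68 ± 0.27 (adjusted p = 0.0618) with FW1256, and -0.56 ± 0.48 (adjusted p = 0.36) and -0.26 ± 0.20 (adjusted p = 0.31) in *eat-2* mutants. For *cut-6*, the exposed libraries at 1.37 to 2.82 CPM overlapped the WT libraries at 2.76 to 4.10 CPM. The molting gene *mlt-9* had -0.84 ± 0.83 with FW1256 (adjusted p = 0.422), and *dpy-1* had -0.15 ± 0.21 (adjusted p = 0.581).

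Libraries of the same group spread widely for such members. Among the 30 members with a mean of at least 50 counts, the highest library exceeded the lowest by a median of 1.59-fold with FW1256, 1.69-fold in *eat-2* mutants and 2.05-fold in WT, against 1.13-fold, 1.17-fold and 1.195-fold over all genes of that level. A range of at least 5-fold was found for 3 members with FW1256, 8 in *eat-2* mutants and 11 in WT. The shares of all genes with such a range were 0.701% with FW1256, 1.05% in *eat-2* mutants and 1.37% in WT.

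The 11 members that spanned at least 5-fold in WT were *bli-1*, *col-12*, *col-17*, *col-88*, *col-97*, *col-167*, *cut-2*, *grd-14*, *mlt-9*, *rol-6* and *sqt-1*, 8 of which are collagens. WT replicate 4 was lowest for all 11, and the highest WT library was replicate 2 for 7 and replicate 1 for 4. They were chosen for their range in WT, among tested members with a mean of at least 50 counts over all 12 libraries. The ranges in the other groups were not used for the choice, although their counts entered that mean. In *eat-2* mutants replicate 2 was highest for all 11 and replicate 4 lowest for 8, and with FW1256 replicate 2 was highest for 8. The 11 were chosen by their WT values, so their order among WT libraries is a description only. Among all 30 members of that level, whatever their range, replicate 2 of *eat-2* mutants was highest for 20 and replicate 4 of WT lowest for 15. Over all genes of that level, replicate 2 of *eat-2* mutants was the highest of its group for 28.4%, and replicate 4 of WT the lowest for 27.2%.

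**Figure D4:**
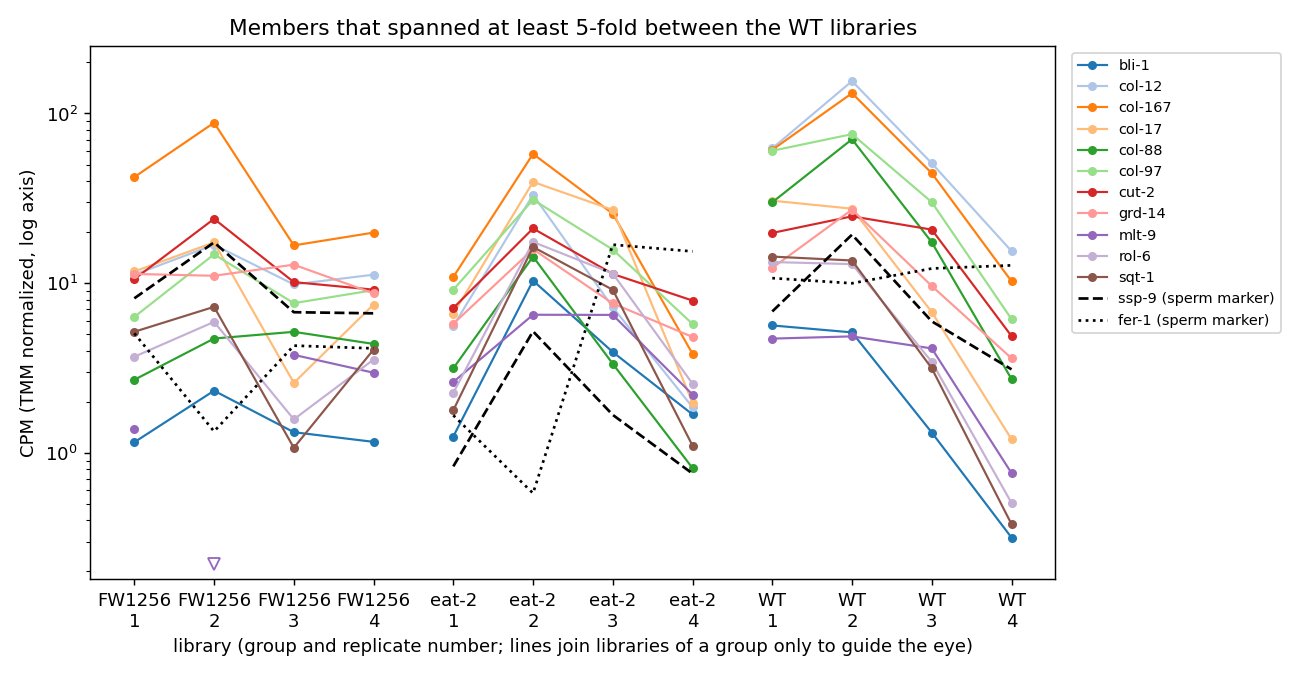
CPM (log axis) in each library for the 11 members that spanned at least 5-fold between WT libraries, with 2 sperm markers in black. An open triangle marks *mlt-9* at 0. WT replicate 4 is the lowest WT library for all 11 members, and replicate 2 is the highest *eat-2* library for all 11.

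Only 2 of 19 sperm markers were in the tables, and they did not move alike. The sperm-specific gene *ssp-9* had 8.14, 17.4, 6.74 and 6.64 CPM with FW1256, 0.832, 5.198, 1.67 and 0.755 CPM in *eat-2* mutants, and 6.81, 19.3, 5.96 and 3.10 CPM in WT, highest in replicate 2 and lowest in replicate 4 of each group. The gene *fer-1*, needed for sperm activation, had 5.06, 1.34, 4.28 and 4.13 CPM with FW1256, 1.66, 0.578, 16.9 and 15.4 CPM in *eat-2* mutants, and 10.7, 9.98, 12.2 and 12.7 CPM in WT, with replicate 2 lowest in each group. Their part in the spread of the cuticle genes was not tested.

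Genes of the same pathways outside the named families were read from lists of known components. Their counts stand against 25.5% of all tested genes higher and 24.8% lower with FW1256, and 21.8% higher and 22.4% lower in *eat-2* mutants, and each list holds few tested genes. Of 6 tested enzymes that process collagen, 3 fell with FW1256 and none rose. The median log2 fold change of the 6 was -0.12 with FW1256 and 0.0063 in *eat-2* mutants. Those that fell were the prolyl isomerase gene *fkb-3* (-0.81 on the log2 scale, edgeR's quasi-likelihood test, adjusted p = 6.81e-05), the lysyl hydroxylase gene *let-268*, which acts on basement membrane collagen (-0.71, adjusted p = 0.00131), and the protein disulfide isomerase gene *pdi-3* (-0.18, adjusted p = 0.00224). In *eat-2* mutants 2 of the 6 fell, *pdi-1* (-0.26, adjusted p = 0.000998) and *pdi-3* (-0.23, adjusted p = 0.00567). The zona pellucida protein gene *let-653* fell with FW1256 (-0.74, adjusted p = 0.000776) and had -0.02 in *eat-2* mutants (adjusted p = 0.916).

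Of 7 other molting genes tested with FW1256, 2 rose and 1 fell, with a median log2 fold change of -0.03, and the median in *eat-2* mutants was 0.32. The gene *nhr-85*, a nuclear receptor that times larval transcription, fell to 0.880 to 1.62 CPM with FW1256, against 2.91 to 5.70 CPM in WT (-1.75 ± 0.29, edgeR's quasi-likelihood test, adjusted p = 0.000867). The genes *osm-11*, which encodes a secreted Notch co-ligand, and *let-767*, which encodes a steroid dehydrogenase-like enzyme, rose with FW1256 (0.61, adjusted p = 0.000302, and 0.22, adjusted p = 0.00577) and in *eat-2* mutants (0.30, adjusted p = 0.0273, and 0.24, adjusted p = 0.00325). In *eat-2* mutants the kinase gene *nekl-3* also rose (0.60, adjusted p = 0.00722), and no molting gene of the 8 tested fell.

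In the TGF-beta pathway that sets body length and acts on *lon-1*, 8 other genes were tested, with a median log2 fold change of -0.13 with FW1256 and 0.16 in *eat-2* mutants. With FW1256 the co-Smad gene *sma-4* (-0.69, edgeR's quasi-likelihood test, adjusted p = 0.000723) and *sma-10* (-0.80, adjusted p = 0.00011), whose product binds the receptors, fell and the secreted metalloprotease gene *adt-2* rose (0.66, adjusted p = 0.00127). In *eat-2* mutants *adt-2* (0.54, adjusted p = 0.00371) and the Smad gene *sma-2* (0.52, adjusted p = 0.00692) rose and the receptor gene *daf-4* fell (-0.36, adjusted p = 0.0292). The ligand gene *dbl-1* passed the test in neither comparison with WT.

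Of 19 listed genes that respond to cuticle damage or take part in that response, only 4 were tested. Most of the list was therefore not analysed here, and it was chosen with earlier results of these data known. All 4 were lower with FW1256 (24.8% of all genes were lower), with a median log2 fold change of -1.58 (-0.0029 over all genes). They were the antimicrobial peptide gene *cnc-2* (-2.17, edgeR's quasi-likelihood test, adjusted p = 0.000442), the adaptor gene *tir-1* (-2.05, adjusted p = 5.15e-05), the receptor gene *dcar-1* (-1.102, adjusted p = 4.85e-05) and the glycerol synthesis gene *gpdh-2* (-0.25, adjusted p = 0.0225). In *eat-2* mutants *tir-1* rose (1.13, adjusted p = 0.000746) and the other 3 did not pass the test. Both basement membrane genes in the tables rose with FW1256, the type IV collagen gene *let-2* (0.65, adjusted p = 0.000183) and the perlecan gene *unc-52* (1.08, adjusted p = 0.00426), and *let-2* rose in *eat-2* mutants (0.60, adjusted p = 0.000927).

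Markers of other tissues also moved between the groups. The summed level of the hypodermis markers in the tables (5 of 12 listed, 3 of them members) was 127 to 144 CPM with FW1256, 103 to 141 CPM in *eat-2* mutants and 111 to 129.6 CPM in WT. Of its genes outside the named families, the hypodermal transcription factor gene *lin-26* rose with FW1256, at 70.1 to 85.9 CPM with FW1256, 40.6 to 54.2 CPM in *eat-2* mutants and 42.8 to 58.6 CPM in WT. Its log2 fold change was 0.57 (edgeR's quasi-likelihood test, adjusted p = 0.00177) with FW1256 and -0.16 (adjusted p = 0.305) in *eat-2* mutants, and the nuclear receptor gene *nhr-25* had 0.01 (adjusted p = 0.956) with FW1256. Body wall muscle markers (6 of 11) summed to 3838 to 4182 CPM with FW1256, 2561 to 3269 CPM in *eat-2* mutants and 1650.5 to 1987 CPM in WT. Oocyte and early embryo markers (7 of 17) summed to 13349.5 to 13798 CPM with FW1256, 8551 to 9548 CPM in *eat-2* mutants and 11631 to 13307 CPM in WT. Germline markers (5 of 15) summed to 6009 to 6286 CPM with FW1256, 4243 to 4347 CPM in *eat-2* mutants and 5151 to 5463 CPM in WT. The summed hypodermis markers overlapped among the 3 groups, although *lin-26* within that sum was higher in exposed WT than in every other library. The sums of muscle, oocyte and early embryo, and germline markers did not overlap. Neuron markers (3 of 12) did not overlap either, at 137 to 160 CPM with FW1256, 162 to 179 CPM in *eat-2* mutants and 114 to 120 CPM in WT. Pharynx markers overlapped between exposed WT and *eat-2* mutants, and intestine markers between exposed and unexposed WT. The part of these tissues in the changes of the cuticle genes was not tested.

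For 5 of the 41 members the counts in the libraries were too low for any test (*bus-19*, *col-129*, *cutl-22*, *dpy-31* and *nas-6*). For 11 members the counts of the libraries averaged less than 50% of the mean that the authors give for the same gene in their table for *eat-2* mutants, although the scales were normalized separately. These were the 5 untested genes and *col-172*, *cutl-20*, *dpy-1*, *mlt-9*, *nas-9* and *ptr-12*, and their values should be read as partial. The libraries held 0.254% of the authors' mean of 1479 for *dpy-31*, 0.165% of 858 for *col-129* and 1.23% of 155 for *bus-19*. For *nas-6* the share was 5.59% of 36.9, and for *cutl-22* it was 21.5% of 13.8. Low counts here therefore do not show low expression of these genes. Leaving all 11 out, 17 of 30 members were called with FW1256, 8 of 30 in *eat-2* mutants and 15 of 30 between exposed WT and *eat-2* mutants. Of the 41 members, 16 overlap another annotated gene, among them also *bli-1*, *col-97*, *dpy-11*, *grl-25*, *ptc-3* and *ptr-15*. With members that overlap no annotated gene only, the counts were 8 of 21, 5 of 22 and 9 of 22. The partial gene *cutl-20*, which was 2.36-fold lower with FW1256 (adjusted p = 0.0243), overlaps *shc-1* on the same strand, and *shc-1* was at 9.41 to 10.6 CPM with FW1256, 13.5 to 18.5 CPM in *eat-2* mutants and 14.5 to 16.5 CPM in WT.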

How the data were processed

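RNA of 12 libraries was measured. The authors mapped paired-end reads to the WBcel235 transcriptome with kallisto 0.46.0, used tximport to sum transcripts per gene (length-scaled TPM), and deposited the resulting estimated counts with no scaling between libraries. Use of strand in counting is not given in the sources used here. The authors' tables of comparisons also hold log2 fold changes and p-values, which were not used. Only their mean of normalized counts per gene, deposited in the table for *eat-2* mutants and computed with DESeq2 1.24.0, served here, to find members with partial counts.

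Estimated counts were rounded before fitting. Each pair of groups was fitted with edgeR 4.0.16 (R 4.3.3) by filterByExpr, TMM, glmQLFit and glmQLFTest. Benjamini-Hochberg adjustment covered all tested genes, and genes were called at an adjusted p under 0.05. Every adjusted p in the text comes from this test unless an alternative is named. Totals limit the precision of low genes. Symbols, positions and overlapping genes came from the Ensembl annotation of WBcel235, in which 5271 of 5272 identifiers were found. On simulated counts for FW1256-exposed WT against WT, over 3586 genes, 86 of 100 genes changed 2-fold and 96 of 100 changed 4-fold were recovered, and 7 unchanged genes were called. The changed genes were drawn from all genes above a minimum count in WT. Many members spread more widely between libraries than most genes, and their recovery was not measured separately.

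The members and lists were chosen with earlier results of these data known. Genes given with every library's value were the largest called rises and falls in each comparison, provided that they averaged at least 100 counts and that the groups did not overlap, plus named body-shape and molting genes whatever their values. The genes *col-12*, *col-88*, *col-97* and *grd-1* were named after their values were seen. Alternatives were DESeq2 1.42.0, other size factors, another or no low-count filter, a joint fit of the 3 groups, a block for the replicate number, each library left out in turn, members without overlapping genes, and a 2-fold threshold. The restriction to members with complete counts was chosen after seeing the data.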

Additional observations from a re-analysis of the deposited data

Results flagged for a closer look

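Among the 57 groups examined (19 genes in 3 groups each), 2 held a library far from the others of its group, and chance gives this in about 1 of 20 groups. The level of *col-124* in *eat-2* mutants replicate 2 was 583 CPM, while the other mutant libraries had 176 to 205 CPM. The level of *bli-1* in FW1256-exposed WT replicate 2 was 2.32 CPM, and the other exposed libraries had 1.15 to 1.32 CPM.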

How the results depend on the processing

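The rises of *col-160*, *col-124*, *col-184* and *lon-1* and the falls of *bus-8B*, *cutl-8*, *acn-1*, *nas-20*, *ptc-3*, *dpy-11* and *ptr-10* with FW1256 kept their direction and their call in all 15 alternatives, and so did *lon-1*, *bus-8B*, *nas-20*, *ptc-3* and *bli-4* in *eat-2* mutants. Counts of members called with FW1256 against WT, in *eat-2* mutants against WT, and with FW1256 against *eat-2* mutants were 8, 5 and 9 when only members with no overlapping gene were kept and 10, 3 and 9 when at least a 2-fold change was required. Under a replicate block, 7 members were lower in *eat-2* mutants than in WT (4 without the block), and 19 were called with FW1256. Over all genes, the deviations of same-numbered libraries correlated at -0.04 to 0.15 for FW1256 and WT and at -0.02 to 0.24 for *eat-2* mutants and WT, and not every library correlated best with its own number, so the numbers were not taken as pairs, although for the 11 variable members replicate 2 was often highest in each group and replicate 4 often lowest in WT and in *eat-2* mutants.

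Leaving out 1 library at a time gave 16 to 20 members called with FW1256 (4 higher, 12 to 16 lower), 6 to 10 in *eat-2* mutants (3 to 5 higher, 3 to 6 lower), and 16 to 19 with FW1256 against *eat-2* mutants (5 to 7 higher, 11 to 14 lower). In *eat-2* mutants, where *col-88* missed the threshold, it passed with DESeq2 (adjusted p = 0.0431) and in 1 fit over all 3 groups (adjusted p = 0.030). With the replicate block *col-88* (-2.50, adjusted p = 0.000362) and *col-97* (-1.31, adjusted p = 0.0222) both passed. Changes of sign occurred only where the main value was not called. With FW1256, *bli-4* was at 0.016 without a filter on low counts, 0.010 in 1 fit over all 3 groups, and -0.022 to 0.030 with 1 library left out. In *eat-2* mutants, *sqt-1* was at 0.0097 with the replicate block. With 1 library left out in *eat-2* mutants against WT, *col-124* ranged from -0.48 to 0.42, *col-184* from -0.0052 to 0.23, *acn-1* from -0.046 to 0.19, *sqt-1* from -0.99 to 0.30, *rol-6* from -0.50 to 0.57 and *bli-1* from -0.46 to 0.92 on the log2 scale. The cause was not tested. Of the results for single genes under an alternative, 696 kept their direction and their side of the threshold, 18 lost a call, 12 gained one and 20 changed sign. Genes at a few CPM, such as *bli-1*, are limited by depth and by the spread between libraries.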
